A study of Mus musculus with 8 samples.

Results

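The nuclear genes for subunits of the mitochondrial respiratory chain and of ATP synthase were followed in mouse bone marrow mesenchymal stem cells (MSCs) that carried or lacked *Dnmt3l*. Members were chosen by symbol alone: the *Ndufa*, *Ndufb*, *Ndufc*, *Ndufs* and *Ndufv* genes, *Sdha* to *Sdhd*, the *Uqcr* genes, *Cyc1*, *Cycs*, the numbered *Cox* subunit genes with isoform letters and the *Atp5* genes, without names ending in -ps or af. The rule found 84 of the 24346 genes in the table, namely 35 of complex I, 4 of complex II, 9 of complex III, cytochrome c itself, 18 of complex IV and 17 of ATP synthase (complex V), with *Ndufa4* and *Ndufa4l2* counted under complex IV. *Atp5s* and *Atp5sl* were kept as the rule takes them, although neither encodes a subunit of the enzyme proper. The subunits that the mitochondrial genome encodes were not analysed here, and *Cox4i1*, *Cox4i2* and *Ndufab1* fell outside the rule.

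RNA was sequenced from 4 groups with 2 libraries each: undifferentiated and differentiating MSCs of wild type (WT) mice, and the same states of *Dnmt3l* knockout (KO) littermates on the C57BL/6 background, all female, 8 to 16 weeks old. *Dnmt3l* encodes a cofactor of the enzymes that set new DNA methylation. Cells of 3 mice were mixed for each genotype, depleted of CD11b-positive and CD45-positive cells and used at passage 4, and it is not stated in the sources used here if replicate libraries stem from independent mixes, so p-values may measure technical spread only. Undifferentiated MSCs grew in αMEM with 20% serum, while differentiating MSCs had spent 3 days in 10% serum with 0.1 µM dexamethasone, 10 mM β-glycerophosphate and 50 µM ascorbic acid 2-phosphate, so that serum and induction cannot be told apart.

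In the respiratory chain, complexes I and II pass electrons from NADH and succinate to ubiquinone, complex III passes them to cytochrome c, and complex IV passes them to oxygen. Complexes I, III and IV pump protons across the inner membrane, and ATP synthase uses the return flow to make ATP. Complexes I, III and IV each have a catalytic core and many supernumerary subunits. A few complex IV subunits exist as isoforms that differ between tissues, such as the heart and muscle forms *Cox6a2* and *Cox7a1*. Osteogenic differentiation of MSCs is a setting in which the balance of glycolysis and oxidative phosphorylation is known to change.

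Values were RPKM (reads scaled to transcript length and library size), and steps between low values corresponded to 48.0 to 66.8 M scaled reads per library. *Dnmt3l* was listed at 1.56 and 1.09 RPKM in undifferentiated WT, at 0.845 and 0.830 RPKM in differentiating WT and at 0 in all KO libraries. According to the paper, the WT reads lay only in the later exons of the gene. It did not detect the canonical protein in cultured MSCs, so these levels do not show a functional product. All 12 MSC markers were detected, with summed levels of 1589 to 1745 RPKM in undifferentiated and 3036 to 3916 RPKM in differentiating libraries. With induction, 7 were called higher and 5 lower in WT, and 5 higher and 5 lower in KO MSCs. Calls and shares of all genes are given below. The sums therefore do not describe each marker. Macrophage and leukocyte markers summed to 20.5 to 21.5 RPKM in undifferentiated WT, 33.0 to 37.8 in differentiating WT, 10.0 to 11.03 in undifferentiated KO and 14.1 to 15.2 in differentiating KO. The libraries of a group differed beyond counting noise, with a chi-square per gene of 2.88 to 7.63 in 3 groups and 19.7 in differentiating KO MSCs. Replicate 2 was below replicate 1 in 76 of 82 members in differentiating KO MSCs (92.7%, against 55.7% of all genes), with a median log2 difference of -0.13, against -0.02 over all genes. It was below in 12.2% of members in undifferentiated WT (42.7% of all genes), in 17.1% in differentiating WT (49.8%) and in 57.3% in undifferentiated KO MSCs (53.4%).

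Most members were among the abundant transcripts of these cells. Of the 84, 68 averaged 50 RPKM or more over the 8 libraries, a level reached by 1737 of the 15342 genes tested, and 10 had a mean below 10 RPKM. The highest mean was that of *Atp5b*, the catalytic β subunit of ATP synthase, at 553 RPKM, with 632 and 661 RPKM in undifferentiated WT libraries. Supernumerary subunits of ATP synthase and complex IV followed, namely *Atp5k*, *Cox6b1*, *Atp5l* and *Cox6c*. In undifferentiated WT MSCs the median level was 212 RPKM over ATP synthase genes, 149 over complex IV, 97.3 over complex III, 92.9 over complex II and 90.7 over complex I. Levels were per length, and 19 members have a longest annotated transcript under 600 nt, where the length correction weighs most. *Atp5l* shares 68.5% of its 50-base stretches with transcripts of other genes, the only member at 50% or more, so its level is uncertain.

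**Figure D1:**
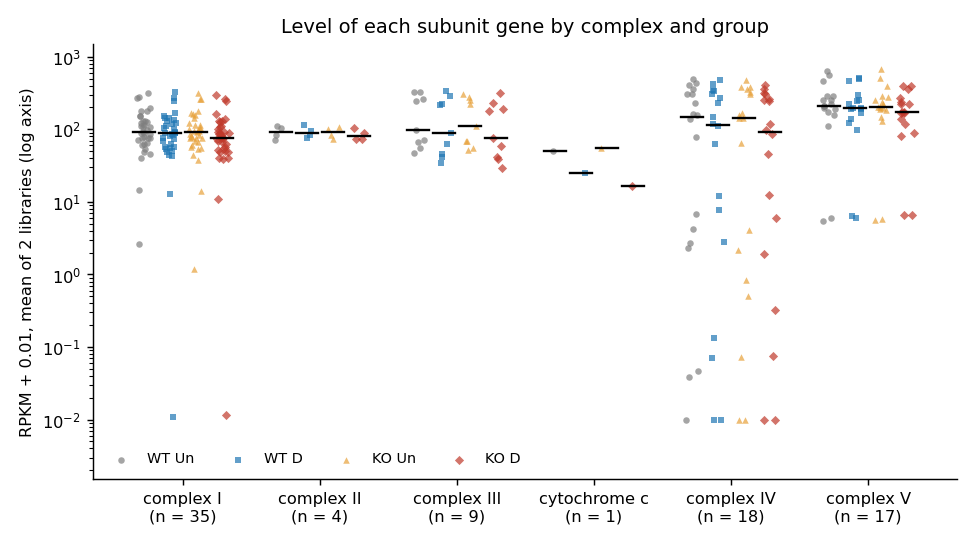
RPKM plus 0.01 on a log axis for each of the 84 genes, as the mean of 2 libraries in each group (marker shape and color), by complex; black bars are medians. Most genes lie above 10 RPKM in every group, while complex IV also holds isoform genes at or near 0.

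The 2 members *Cox7b2* and *Cox8c* could not be tested because their means were under 0.1 RPKM. *Cox7b2*, a testis form, was listed at 0.0575 RPKM in 1 undifferentiated WT library and at 0 elsewhere, and *Cox8c*, another restricted form, at 0.0748 RPKM in the other undifferentiated WT library and at 0 elsewhere. *Ndufs5*, a complex I subunit, was listed at 5.31 RPKM in replicate 1 of undifferentiated WT and 2.36 RPKM in replicate 2 of undifferentiated KO MSCs, but between 0.000690 and 0.00151 RPKM in the other libraries. Since replicates differed in this way, no difference between groups is given for it.

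Osteogenic induction lowered many respiratory chain genes in both genotypes, by small amounts. A gene was called when its difference in log2(RPKM + 0.1) had a Benjamini-Hochberg adjusted p under 0.05 in limma over all 15342 genes. In WT MSCs 36 of 82 members were called, 34 lower and 2 higher, where 64.4% of all genes were called, 32.8% lower and 31.6% higher. In KO MSCs 63 members were called, 52 lower and 11 higher, where 72.9% of all genes were called, 36.6% lower and 36.4% higher. The share of members called was 43.9% in WT and 76.8% in KO MSCs, and on the lower side alone it was 41.5% and 63.4%. The median member changed by -0.13 in WT and -0.25 in KO MSCs on the log2 scale, where the median of all genes was 0.00 in both.

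These shifts depended on how libraries were scaled. For the alternative fits in this paragraph, shares of all genes called are not given. When each library was centred on its median, the median of all genes itself moved by -0.10 in WT and the member median became -0.23, with 56 members lower and 1 higher. Under quantile normalization the WT median was -0.04, which lay 0.04 above the median of all genes, and 29 members were lower and 11 higher. In KO MSCs the members stayed below the median of all genes under both scalings, by 0.25 and 0.09. Without replicate 2 of undifferentiated WT 21 WT calls were left, and without replicate 1 of differentiating WT 22.

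**Figure D2:**
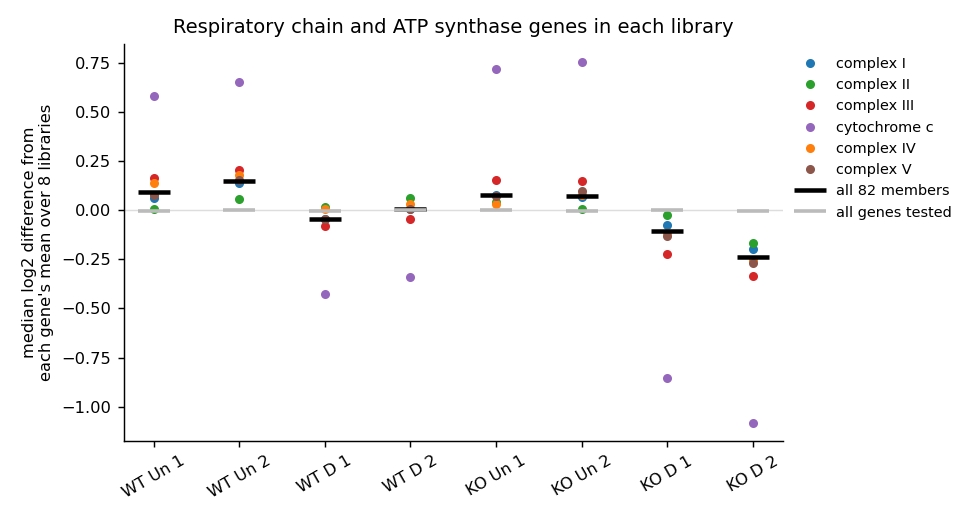
Median over the genes of each complex of the log2 difference from each gene's own mean over 8 libraries, for each library; black bars are the median of all 82 members tested and grey bars the median of all genes tested. The black bars of undifferentiated libraries lie above 0, and replicate 2 of differentiating KO MSCs is the lowest at -0.24.

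The calls covered every enzyme but differed between them. In KO MSCs induction lowered 8 of 9 complex III genes, 12 of 17 ATP synthase genes, 10 of 16 complex IV genes, 19 of 35 complex I genes and 2 of 4 complex II genes, where 36.6% of all genes were lower. It raised 1, 2, 4, 4 and 0 genes of these complexes. The 2 raised genes counted under ATP synthase were *Atp5s* and *Atp5sl*, which encode no subunit of the enzyme proper. The 4 raised under complex IV include *Cox8b*, which rests on an estimated 0 to 3.0 reads. In WT the corresponding counts were 6, 8, 7, 12 and 0 lower, where 32.8% of all genes were lower, and 0, 0, 1, 1 and 0 higher. Medians in KO MSCs were -0.42 for complex III, -0.31 for ATP synthase, -0.25 for complex IV, -0.20 for complex I and -0.11 for complex II. Complex II, succinate dehydrogenase, was nearly level: *Sdha*, the flavoprotein subunit, stood at 68.5 and 72.3 RPKM in undifferentiated WT, 75.1 and 76.2 in differentiating WT, 75.01 and 72.3 in undifferentiated KO and 76.0 and 72.6 in differentiating KO MSCs. The complex II calls in KO MSCs were *Sdhb* and *Sdhd* (-0.18 and -0.20, adjusted p = 0.0296 and 0.0114). Both were lost without either undifferentiated KO library, and *Sdhb* also without either differentiating WT library or replicate 2 of differentiating KO MSCs (-0.20 to -0.11 over both genes). Over 20 core subunits, 9 were lower in WT and 14 in KO MSCs.

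**Figure D3:**
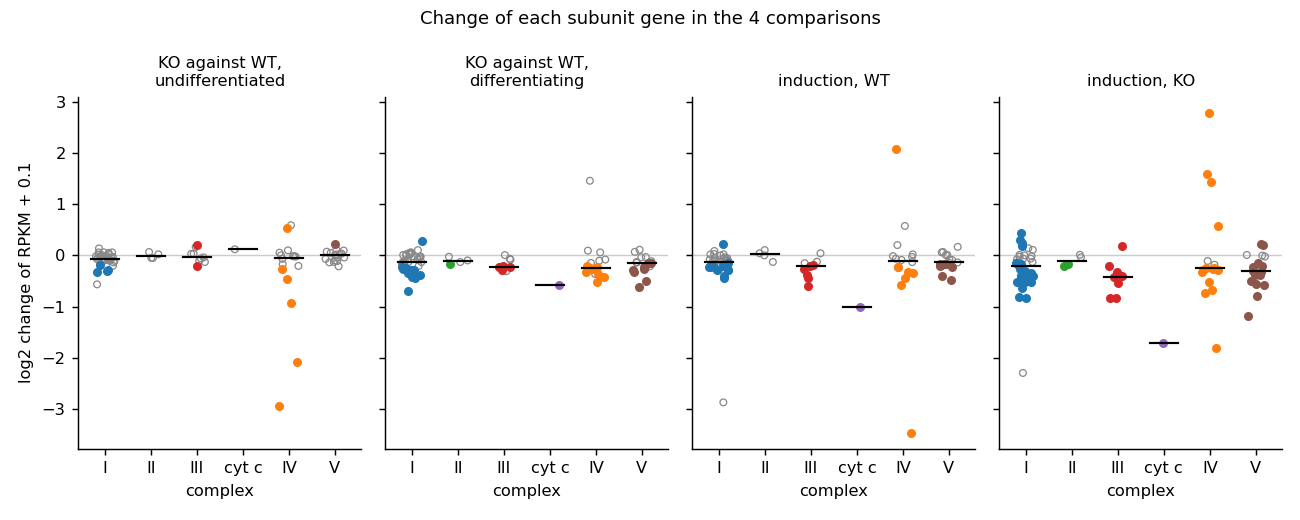
Log2 change of RPKM plus 0.1 for each of the 82 genes tested, by complex (cyt c, cytochrome c), in 4 comparisons; filled points have an adjusted p under 0.05, open points do not, and black bars are medians. The points lie mainly below 0 after induction in KO MSCs, and the far points are mostly complex IV isoforms. The open complex I point far below 0 after induction is *Ndufs5*, whose replicates differ.

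Cytochrome c had the largest fall among members above 10 RPKM. *Cycs* (mm10 chr6:50562563-50566538, minus strand) stood at 49.1 and 51.5 RPKM in undifferentiated WT, 24.3 and 25.8 in differentiating WT, 53.9 and 55.3 in undifferentiated KO and 18.1 and 15.4 in differentiating KO MSCs. No library of a state overlapped the other state, and the differentiating KO libraries were the lowest. The log2 change was -1.0 ± 0.08 (SE) in WT (adjusted p = 9.49e-05) and -1.70 ± 0.08 in KO MSCs (adjusted p = 6.23e-06). Its direct partner in complex III, the cytochrome c1 gene *Cyc1*, fell by 0.44 on the log2 scale in WT (adjusted p = 0.00120) and by 0.84 in KO MSCs (adjusted p = 4.33e-05). Of the other complex III genes, 5 fell in both genotypes, among them *Uqcrq* and *Uqcrfs1*. *Uqcrq*, a small supernumerary subunit, changed by -0.59 and -0.84, and *Uqcrfs1* encodes the Rieske iron-sulfur protein. *Uqcrfs1* went from 53.8 and 55.1 to 41.4 and 41.6 RPKM in WT and from 57.0 and 54.4 to 42.9 and 40.5 in KO MSCs, nearly the same change in both genotypes (-0.39 and -0.42).

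The membrane ring of ATP synthase is built from subunit c, and the genes *Atp5g1*, *Atp5g2* and *Atp5g3* encode the same mature protein with different import sequences. *Atp5g1* (chr11) stood at 169 and 174 RPKM in undifferentiated WT, 118 and 128 in differentiating WT, 187 and 179 in undifferentiated KO and 87.4 and 73.8 in differentiating KO MSCs. It fell by 0.48 ± 0.08 in WT (adjusted p = 0.00314) and by 1.19 ± 0.08 in KO MSCs (adjusted p = 3.75e-05). *Atp5g2*, the most abundant of the set, had 241 and 259 RPKM in undifferentiated WT, 230 and 224 in differentiating WT, 255 and 255 in undifferentiated KO and 235 and 209 in differentiating KO MSCs. It did not pass the test in WT (-0.14, adjusted p = 0.113) and changed by -0.20 in KO MSCs (adjusted p = 0.0322), a call that was lost without any of 5 libraries: either differentiating WT library, either undifferentiated KO library or replicate 2 of differentiating KO MSCs (-0.20 to -0.11). *Atp5g3* lay between them, with -0.17 in WT (adjusted p = 0.0497, lost without any of 5 libraries: both of undifferentiated WT, both of undifferentiated KO and replicate 1 of differentiating WT MSCs, -0.19 to -0.11) and -0.57 in KO MSCs (adjusted p = 2.09e-04). *Atp5g1* lay somewhat below *Atp5g3* in undifferentiated libraries and far below it in differentiating KO libraries.

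Among the rest, *Atp5b* fell by 0.40 in WT and 0.78 in KO MSCs (adjusted p = 0.00536 and 1.79e-04). The complex I core subunit *Ndufs8*, which binds iron-sulfur clusters, fell by 0.41 and 0.82 (adjusted p = 0.00354 and 1.02e-04), and the accessory subunit *Ndufa12* by 0.44 and 0.80 (adjusted p = 0.00434 and 2.08e-04). *Cox7a2*, the common form of subunit VIIa, fell by 0.44 and 0.68 (adjusted p = 0.00146 and 1.33e-04). In the other direction, *Ndufb11*, an X-linked complex I subunit, stood at 72.5 and 79.6 RPKM in undifferentiated and 87.4 and 90.3 in differentiating WT, and at 77.9 and 76.8 and then 96.0 and 87.9 RPKM in KO MSCs. It rose by 0.23 in WT (adjusted p = 0.0174, lost without replicate 1 of undifferentiated WT or either differentiating WT library, 0.16 to 0.25) and by 0.25 in KO MSCs (adjusted p = 0.00991, lost without replicate 2 of undifferentiated KO MSCs, at 0.24).

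The members that fell in WT largely fell in KO MSCs too. Of the 34 lower in WT, 33 were lower in KO MSCs, and these made up 33 of the 52 lower in KO MSCs. This overlap was not counted over all genes, of which 32.8% were lower in WT and 36.6% in KO MSCs. It is therefore not given as particular to the members. The log2 change was lower in KO than in WT MSCs by point estimate in 59 of 82 members (72.0%, against 50.7% of all genes), including genes that rose in both. These comparisons share no library. Across the 74 members tested that averaged 10 RPKM or more, the log2 changes in WT and KO MSCs had a Pearson correlation of 0.867. This is a description across genes, which share libraries and are not replicates, and the correlation over all genes was not computed.

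Whether the change with induction differed between genotypes was tested as an interaction, positive where KO MSCs rose more or fell less. It was called in 19 of 82 members, 14 lower and 5 higher, where 39.4% of all genes were called, 20% lower and 19.4% higher. That is 23.2% of members, and 17.1% on the lower side. The member median was -0.11, against -0.01 over all genes. Shares of all genes called are not given for the fits without 1 library that follow. Their counts therefore do not set the members apart from other genes. The count ranged from 8 to 35 when 1 library was left out: it was 35 without replicate 1 of differentiating KO MSCs, 9 and 12 without replicates 1 and 2 of undifferentiated WT, 10 without replicate 2 of differentiating WT, and 8 and 10 without replicates 1 and 2 of undifferentiated KO MSCs. Calls for 8 genes were kept in each of these fits: *Atp5g1*, *Cycs*, *Atp5d* and *Uqcrc1* on the lower side, and *Cox7a2l*, *Ndufa6*, *Ndufv3* and *Ndufa4l2* on the higher side.

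**Figure D4:**
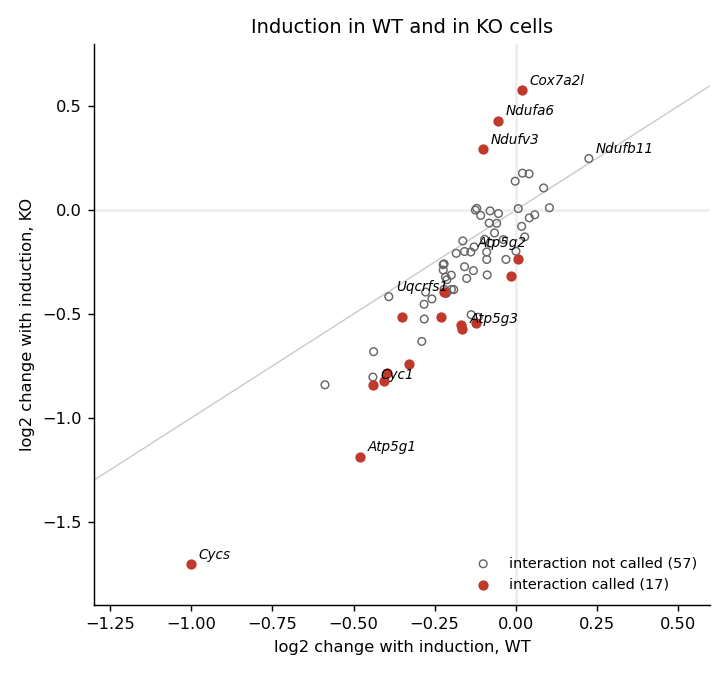
Log2 change with induction in WT (horizontal) and KO MSCs (vertical) for the 74 tested genes averaging 10 RPKM or more; the line marks equal change and red points have an adjusted p under 0.05 for the interaction (17 of 74). *Cycs* and *Atp5g1* lie farthest below the line, and *Cox7a2l*, *Ndufa6* and *Ndufv3* above it.

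The interaction was -0.71 ± 0.12 for *Atp5g1* (adjusted p = 0.00636) and -0.70 ± 0.11 for *Cycs* (adjusted p = 0.00491). For *Atp5d*, the δ subunit of the ATP synthase rotor, it was -0.38 (adjusted p = 0.00450): its level went from 109 and 112 to 99.7 and 97.4 RPKM in WT, and from 127 and 133 to 91.1 and 86.2 RPKM in KO MSCs. *Uqcrc1*, a core protein of complex III, had -0.42 (adjusted p = 0.00846). It stood at 95.4 and 99.2 in undifferentiated WT, 86.2 and 92.6 in differentiating WT, 113 and 110 in undifferentiated KO and 79.5 and 73.4 RPKM in differentiating KO MSCs. For both genes KO libraries were the highest before induction and the lowest after it. *Ndufs8* and *Cox5a* were also called (-0.42 and -0.41, adjusted p = 0.0227 and 0.0343). The call of *Ndufs8* was lost without either undifferentiated library of WT or KO or without replicate 2 of differentiating WT MSCs (-0.45 to -0.37), and that of *Cox5a* without any of 6 libraries, all but replicate 2 of undifferentiated WT and replicate 1 of differentiating KO MSCs (-0.43 to -0.30).

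A small group went the other way. *Cox7a2l* encodes a protein related to subunit VIIa. It stood at 224 and 237 RPKM in undifferentiated WT, 231 and 236 in differentiating WT, 169 and 164 in undifferentiated KO and 252 and 246 in differentiating KO MSCs. The undifferentiated KO libraries were below all others and the differentiating KO libraries above all others, and induction changed it by 0.02 in WT (adjusted p = 0.688) and 0.58 ± 0.04 in KO MSCs (adjusted p = 3.82e-05), with an interaction of 0.56 (adjusted p = 0.00155). *Ndufa6*, a complex I accessory subunit, had 117 and 115, 112 and 111, 101 and 102, and 134 and 139 RPKM in the same order of groups, so that KO was below WT before induction and above it afterwards. Its interaction was 0.48 (adjusted p = 0.00115). *Ndufv3*, another accessory subunit, had 127 and 133, 118 and 125, 106 and 106, and 136 and 124 RPKM, with an interaction of 0.39 (adjusted p = 0.0114).

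In undifferentiated MSCs few members differed between genotypes. Called were 13 of 82, 10 lower and 3 higher in KO, where 32.2% of all genes were called, 17.5% lower and 14.7% higher, and the median difference was -0.05 against 0.00 over all genes. For the alternative fits that follow, shares of all genes called are not given, so their counts do not set the members apart. The count was 7 without either replicate 2 of undifferentiated WT or replicate 1 of undifferentiated KO MSCs and 6 without replicate 2 of undifferentiated KO MSCs, and quantile normalization gave 14 lower and 9 higher. The calls kept without any single library were all lower in KO, and all were counted under complex IV by symbol. They were *Ndufa4l2*, *Cox6a2*, *Cox7a1*, *Cox7a2l* (-0.46 ± 0.04, adjusted p = 0.00117) and *Cox7c*. *Cox7c*, named after its values were seen, stood at 79.1 and 79.0 RPKM in WT and 65.7 and 65.9 in KO MSCs (-0.26, adjusted p = 0.00165). *Ndufa12* was also lower in KO, at 152 and 160 against 191 and 202 RPKM (-0.33, adjusted p = 0.0288), a call lost without any undifferentiated or differentiating WT library or any undifferentiated KO library (-0.37 to -0.29). Those higher in KO were *Cox6b2*, *Atp5d* and *Uqcrc1*. *Atp5d* was higher by 0.23 (adjusted p = 0.00977, lost without replicate 1 of undifferentiated WT or replicate 2 of undifferentiated KO MSCs, at 0.20 to 0.21) and *Uqcrc1* by 0.19 (adjusted p = 0.0403, lost without any undifferentiated library, 0.17 to 0.22).

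In differentiating MSCs 33 of 82 members were called lower in KO, 1 (*Ndufa6*) was called higher and 48 were not called, where 40.7% of all genes were called, 22.9% lower and 17.8% higher, and the median difference was -0.15 against -0.01. The count moved with single libraries: 7 members were called without replicate 2 and 19 without replicate 1 of differentiating WT, 13 without replicate 2 of differentiating KO MSCs, and 8 when only the 4 differentiating libraries were fitted. Shares of all genes called in these fits are not given, so these counts describe only how stable the member calls were. The member median stayed negative, between -0.24 and -0.08, without any 1 library, and was -0.10 under quantile normalization. The replicate difference among differentiating KO libraries, a median of -0.13, was close to this genotype difference in size. The 6 members called lower in each fit without 1 library were *Ndufa12*, *Atp5g1*, *Cycs*, *Ndufs8*, *Cox7c* and *Ndufs6*, the last also named after its values were seen.

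The largest of these was *Ndufa12*, with 148 and 142 RPKM in WT and 97.2 and 82.2 in KO MSCs (-0.70 ± 0.08, adjusted p = 0.00234). *Atp5g1* differed by -0.61 (adjusted p = 0.00340), *Cycs* by -0.58 (adjusted p = 0.00303), *Ndufs8* by -0.45 (adjusted p = 0.00588), *Cox7c* by -0.43 (adjusted p = 6.15e-04) and *Ndufs6* by -0.25 (adjusted p = 0.00424). *Ndufa6* was higher in KO by 0.29 (adjusted p = 0.00179). *Atp5k*, a small subunit of the ATP synthase membrane part, stood at 476 and 543 RPKM in WT and 399 and 323 in KO MSCs (-0.50, adjusted p = 0.0176, lost without replicate 2 of either differentiating group, -0.41 to -0.35). Over 2-fold with an adjusted p under 0.05, the limits of the study, 0 members differed in this comparison (3.3% of all genes), although limma called 34 without the fold limit and 1 (*Cox8b*) passed 2-fold at an unadjusted p under 0.05. The corresponding counts were 2 in undifferentiated MSCs (1.7% of all genes), 3 with induction in WT (14.3%), 6 with induction in KO (22.9%) and 2 for the interaction (6.17%).

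Besides *Cycs* and *Atp5g1*, the members called with over 2-fold differences were sparsely expressed isoform genes. *Ndufa4l2*, a paralog of *Ndufa4* known to respond to hypoxia, stood at 7.06 and 6.41 RPKM in undifferentiated WT, 8.52 and 7.05 in differentiating WT, 0.573 and 1.06 in undifferentiated KO and 5.98 and 6.02 in differentiating KO MSCs. The undifferentiated KO libraries, at an estimated 20.2 and 38.4 reads, were far below all others, at 218 or more. KO was lower by 2.95 ± 0.25 before induction (adjusted p = 9.69e-04, 7.73-fold), and induction raised it by 2.79 in KO MSCs (adjusted p = 1.01e-04) against a change of 0.20 in WT (adjusted p = 0.504), with an interaction of 2.59 (adjusted p = 0.00323). *Ndufa4* itself, now counted as a complex IV subunit, ranged from 288 to 370 RPKM over all libraries. It fell by 0.24 with induction in KO MSCs (adjusted p = 0.0136), a call lost without either undifferentiated KO library (-0.24 to -0.23).

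*Cox6a2*, the heart and muscle form of subunit VIa, stood at 2.41 and 2.27 RPKM in undifferentiated WT, 0.164 and 0.0854 in differentiating WT, 0.364 and 0.620 in undifferentiated KO and 0.0872 and 0.0443 in differentiating KO MSCs, from an estimated 1.0 to 56.6 reads. Undifferentiated WT was above all other libraries. KO was lower by 2.08 before induction (adjusted p = 0.00408) and induction changed it by -3.46 in WT (adjusted p = 1.13e-04) on the log2(RPKM + 0.1) scale, values that depend on the pseudocount. It was also called lower with induction in KO MSCs (adjusted p = 0.00131), where its differentiating libraries held 2.1 and 1.0 estimated reads. Of 9 striated muscle markers, whose sums were 34.4 to 35.4 RPKM in undifferentiated WT, 4.26 to 4.90 in differentiating WT, 46.7 to 48.5 in undifferentiated KO and 2.91 to 3.13 in differentiating KO MSCs, *Acta1* gave nearly all. *Ckm* was listed at 0 in 7 libraries, and the part of muscle-like transcripts in *Cox6a2* was not tested. The common form *Cox6a1* ranged from 250 to 335 RPKM. It changed by -0.01 with induction in WT (adjusted p = 0.856) and fell by 0.32 in KO MSCs (adjusted p = 0.00300).

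*Cox6b2*, a testis form of subunit VIb, rose with induction in both genotypes, from 2.74 and 2.73 to 11.3 and 12.4 RPKM in WT and from 3.52 and 4.57 to 13.8 and 11.04 RPKM in KO MSCs (2.08 and 1.60, adjusted p = 7.01e-05 and 1.28e-04). It was higher in KO by 0.54 before induction (adjusted p = 0.0387, lost without any WT library or without replicate 2 of undifferentiated KO MSCs, 0.36 to 0.54). The common form *Cox6b1* ranged from 388 to 504 RPKM. It fell by 0.24 with induction in KO MSCs (adjusted p = 0.0167), a call lost without either undifferentiated KO library or replicate 2 of differentiating KO MSCs (-0.26 to -0.16). *Cox7a1*, the muscle form of subunit VIIa, had 4.63 and 3.84, 2.84 and 2.75, 1.91 and 2.48, and 1.83 and 1.99 RPKM in undifferentiated and differentiating WT and then KO MSCs. It was lower in KO before induction (-0.92, adjusted p = 0.00600). It was also lower in KO after induction (-0.53, adjusted p = 0.0281, lost without any differentiating library, -0.58 to -0.47) and with induction in WT (-0.58, adjusted p = 0.0122, lost without replicate 1 of undifferentiated WT or either differentiating WT library, -0.60 to -0.44). *Cox8b*, a muscle and brown fat form, was listed at 0 to 0.380 RPKM, from an estimated 0 to 3.0 reads, where 3 reads would give 0.281 to 0.391 RPKM. It passed the test with induction in KO MSCs (adjusted p = 0.0460), but no fold is given at these reads, and the call was lost without any of 5 libraries: both of undifferentiated WT, both of differentiating KO and replicate 1 of undifferentiated KO MSCs (adjusted p = 0.0745 to 0.209).

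**Figure D5:**
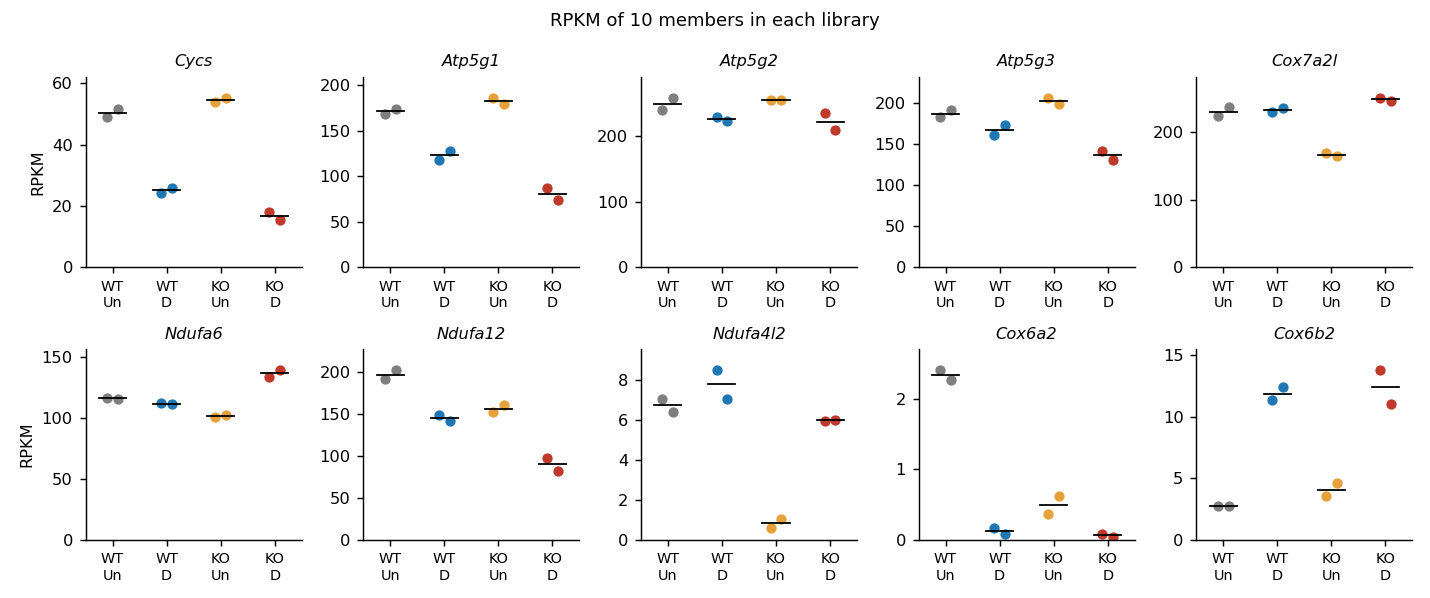
RPKM in each library (points, 2 per group) with the group mean (bar) for 10 members, in undifferentiated (Un) and differentiating (D) WT and KO MSCs; each vertical axis starts at 0. *Cycs* and *Atp5g1* are lowest in differentiating KO MSCs, and *Cox7a2l* and *Ndufa4l2* are lowest in undifferentiated KO MSCs.

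The 250 bases before each RefSeq start on GRCm38.p6 were searched on both strands for short motifs of factors known to act on respiratory genes. The promoter table held 68 of 84 members, with 74 windows. Any of the motifs below occurred in 29 of these windows (39.2%, against 14.1% of all windows), so most member windows held none. The NRF1 motif GCGCANGCG occurred in 21.6% of member windows and 5.16% of all windows, the ETS motif CCGGAAG, which GABPA can bind, in 16.2% and 6.91%, the CREB motif TGACGTCA in 6.8% and 1.55%, the YY1 motif AAGATGGC in 2.7% and 1.56%, and the ERR motif TCAAGGTCA in 1.4% and 0.387%. Overlapping matches in a palindrome count once here, and a match is a description of the letters only. The windows of *Cycs*, the 3 subunit c genes and *Cox7a2l* are given because these genes differed from each other in how they changed with induction. They lie at chr6:50566570-50566819 (*Cycs*), chr11:96075632-96075881 (*Atp5g1*), chr15:102671048-102671297 (*Atp5g2*), chr2:73911327-73911576 (*Atp5g3*) and chr17:83514334-83514583 (*Cox7a2l*), all on the minus strand, and are written 5′ to 3′ toward the start with matches to these motifs in capitals.
Cycs: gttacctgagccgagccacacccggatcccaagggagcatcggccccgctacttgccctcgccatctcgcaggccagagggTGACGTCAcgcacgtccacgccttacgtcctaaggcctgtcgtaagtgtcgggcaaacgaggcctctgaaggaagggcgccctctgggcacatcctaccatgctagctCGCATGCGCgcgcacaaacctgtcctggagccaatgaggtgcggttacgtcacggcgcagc
Atp5g1: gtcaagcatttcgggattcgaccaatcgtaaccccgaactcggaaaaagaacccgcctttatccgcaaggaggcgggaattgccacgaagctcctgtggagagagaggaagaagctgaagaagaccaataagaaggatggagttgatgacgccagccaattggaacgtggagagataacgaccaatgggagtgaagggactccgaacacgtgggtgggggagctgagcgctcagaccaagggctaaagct
Atp5g2: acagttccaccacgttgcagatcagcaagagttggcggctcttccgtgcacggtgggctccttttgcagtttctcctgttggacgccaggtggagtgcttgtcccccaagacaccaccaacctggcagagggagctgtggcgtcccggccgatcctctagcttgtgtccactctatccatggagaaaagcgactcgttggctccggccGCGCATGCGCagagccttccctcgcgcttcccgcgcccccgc
Atp5g3: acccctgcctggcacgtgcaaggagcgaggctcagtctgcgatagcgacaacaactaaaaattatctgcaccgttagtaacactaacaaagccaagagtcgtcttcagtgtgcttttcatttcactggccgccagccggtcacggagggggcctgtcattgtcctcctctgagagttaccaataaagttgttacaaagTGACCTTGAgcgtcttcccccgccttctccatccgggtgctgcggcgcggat
Cox7a2l: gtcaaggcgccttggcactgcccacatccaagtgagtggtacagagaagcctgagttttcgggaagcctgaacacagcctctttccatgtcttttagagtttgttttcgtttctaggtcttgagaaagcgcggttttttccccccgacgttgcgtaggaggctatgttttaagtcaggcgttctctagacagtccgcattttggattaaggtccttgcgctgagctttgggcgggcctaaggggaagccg
In *Cycs* the capitals mark a CREB match 169 bases and an NRF1 match 61 bases before the start. In *Atp5g2* they mark a palindromic NRF1 match that begins 42 bases before the start, and in *Atp5g3* an ERR match 52 bases before it. *Atp5g1* and *Cox7a2l* held none of these letters in this window. For *Atp5g2* and *Cox7a2l* the window lies inside the annotated gene span, whose upstream end is at 102672352 and 83517330. Sequence before that end was not covered for these genes. The CREB motif was found for *Cycs*, *Uqcrfs1*, *Ndufa10*, *Ndufa11* and *Ndufb2*, and all 5 were lower with induction in KO MSCs, as were 38 of the other 62 tested members in the table. Of the 15 members with the NRF1 motif 10 were lower, as were 33 of 52 without it. Over all genes, 36.6% were lower with induction in KO MSCs. Calls were not counted over all genes with either motif, and a link between motif and change was not tested.

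Other genes of mitochondrial energy metabolism were counted from lists, each beside the background given above. Of 77 mitochondrial ribosomal protein genes, which serve translation of the subunits encoded in mitochondria, induction lowered 43 and raised 3 in WT and lowered 57 and raised 1 in KO MSCs (medians -0.17 and -0.37), and KO was lower in 29 and higher in 2 in differentiating MSCs. Of 40 assembly factors, 18 were lower and 5 higher in WT and 22 lower and 7 higher in KO MSCs. *Tmem70*, an assembly factor of ATP synthase, went from 55.0 and 58.3 to 27.4 and 29.4 RPKM in WT and from 52.5 and 51.1 to 25.5 and 23.5 RPKM in KO MSCs. Of 18 citric acid cycle genes, 11 were lower and 3 higher in WT and 12 lower and 3 higher in KO MSCs, with *Idh3a* lower (-1.296 in KO) and *Pcx*, pyruvate carboxylase, higher (1.55 in WT and 1.95 in KO). Of 20 genes for electron carriers and ATP export, 9 were lower and 4 higher in WT and 12 lower and 2 higher in KO MSCs. Among the subunits outside the rule, *Cox4i2*, the hypoxia form of subunit IV, rose from 0.739 and 0.931 to 2.87 and 2.64 RPKM in WT and from 0.555 and 0.693 to 2.09 and 1.93 RPKM in KO MSCs, while *Cox4i1* ranged from 505 to 622 RPKM and changed by -0.16 in WT (adjusted p = 0.0376) and 0.07 in KO MSCs (adjusted p = 0.232).

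Of 17 regulators of mitochondrial biogenesis tested, 7 were lower and 3 higher with induction in WT and 9 lower and 3 higher in KO MSCs. *Ppargc1a*, the PGC-1α coactivator, was listed at 0.00964 to 0.176 RPKM and was not tested. *Pprc1*, its relative that responds to serum, stood at 2.83 and 2.35 in undifferentiated WT, 2.26 and 2.204 in differentiating WT, 4.57 and 4.57 in undifferentiated KO and 1.40 and 1.66 RPKM in differentiating KO MSCs, with an interaction of -1.33 (adjusted p = 0.00211). *Nrf1* fell by 0.34 in WT and 0.42 in KO MSCs and *Tfam*, the mitochondrial transcription factor, by 0.41 and 0.26, whereas *Esrra* changed by 0.00 and 0.01 (adjusted p = 0.985 and 0.919). *Gabpa* changed by -0.11 in WT (adjusted p = 0.0355) and 0.06 in KO MSCs (adjusted p = 0.214).

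Proliferation markers also differed between these groups. Between undifferentiated genotypes, 6 of the 12 were higher in KO and 0 lower (median 0.47). The median difference there was -0.05 over the members and 0.03 over the 20 core subunits. All 12, among them *Mki67* and *Top2a*, were lower after induction in both genotypes (medians -0.79 in WT and -2.69 in KO) and lower in KO than in WT after induction (-1.28), and the interaction was called lower for all 12 (-1.66). Their summed level was 279 to 281 RPKM in undifferentiated WT, 159 to 173 in differentiating WT, 371 to 373 in undifferentiated KO and 80.1 to 101 in differentiating KO MSCs, and none of them was at 0. Adipocyte markers also rose with induction, from sums of 47.3 to 49.4 to 377 to 381 RPKM in WT and from 53.8 to 56.0 to 389 to 416 in KO MSCs, and osteoblast markers summed to 2097 to 2321 RPKM in differentiating WT and 1170 to 1239 in differentiating KO MSCs. The part of proliferation, adipocyte and osteoblast markers in the changes of the respiratory chain genes was not tested. In bulk RNA, fewer cells of a type and less RNA per cell cannot be told apart.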

How the data were processed

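RNA of the 8 libraries was depleted of ribosomal RNA and sequenced as strand-specific 50-base single-end reads, which the authors aligned to mm10 with TopHat2 2.1.0 and quantified with Cuffdiff (Cufflinks 2.2.1) on an iGenomes annotation. The deposited values are RPKM per gene and library. The library scaling of Cuffdiff is not given in the sources used here.

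Groups came from the sample labels. All genes averaging 0.1 RPKM or more (15342) were fitted as log2(RPKM + 0.1) with limma 3.58.1 under R 4.3.3, with a mean per group, a variance trend, and Benjamini-Hochberg adjustment over all genes. Fold changes on this scale understate the change of low genes. On simulated data at the level of these libraries, the undifferentiated genotypes were compared. Of 100 genes changed by 0.5 (log2) 45 were called, and of 100 changed by 1 75 were called, with 4 false calls. The other genes, of 15342, were left unchanged and noise was independent. In the data 32.2% of all genes were called in this comparison, so these rates need not hold there. Scaled reads were estimated from the steps of low RPKM values in 3912 genes with 1 transcript, with 200 nt subtracted from the length; 75.8% to 78.2% of low values came within 0.1 of a whole read (20% by chance), too few for a count test. Read estimates and the 3-read floor cover counting error only. Positions are from GENCODE vM21 and promoter windows from RefSeq (GRCm38.p6).

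The members and gene lists were chosen with earlier results of these data known. Named were the 5 members per comparison and direction with the largest called change and no overlap between libraries, 20 core subunits, isoform sets, the 5 most abundant members and those not tested, except 1 result that is not reported here; genes of other lists were named after their values were seen. Alternatives changed the pseudocount, expression minimum, scaling, variance trend, block, libraries and fold limit; a minimum of 50 RPKM and a median without members under 10 RPKM were added after the data were seen. Replicate numbers did not pair libraries (correlations of deviations -0.09 to 0.03).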

Additional observations from a re-analysis of the deposited data

Results flagged for a closer look

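The change with induction differed between KO and WT MSCs, by the interaction in limma (adjusted p under 0.05 over all genes), in the 19 members below, given as log2 values, where 39.4% of all genes were called. It was lower in KO MSCs for *Atp5g1* (-0.71), *Cycs* (-0.70), *Uqcrc1* (-0.42), *Ndufs8* (-0.42), *Cox5a* (-0.41), *Atp5g3* (-0.41), *Cyc1* (-0.40). The further genes on this side were *Atp5b* (-0.39), *Atp5d* (-0.38), *Cox6a1* (-0.30), *Ndufb8* (-0.29), *Atp5j* (-0.24), *Ndufs6* (-0.17) and *Cox7c* (-0.16). It was higher in KO MSCs for *Ndufv3* (0.39), *Ndufa6* (0.48), *Cox7a2l* (0.56), *Cox6a2* (1.65) and *Ndufa4l2* (2.59). Adjusted p-values from limma ran from 0.00115 (*Ndufa6*) to 0.0413 (*Ndufs6*). The value of *Cox6a2* rests on an estimated 2.1 and 1.0 reads in differentiating KO MSCs and 5.2 and 2.1 in differentiating WT MSCs and depends on the pseudocount, with the call lost at a pseudocount of 0.01. Calls for 8 of the 19 were kept without any 1 library.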

How the results depend on the processing

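Quantile normalization gave 23 members called between undifferentiated genotypes and 36 for the interaction, with medians of -0.10 between differentiating genotypes, -0.039 with induction in WT and -0.16 in KO MSCs. It also reversed 2 genes with induction in KO MSCs, *Ndufs3* (0.14) and *Sdhc* (0.10), which were not called in the main fit. Median centring gave 57 members called with induction in WT (median -0.23) and a median of -0.33 in KO MSCs. With only the 4 libraries compared, 8 members were called between differentiating genotypes. The 2-fold limit left 2 members between undifferentiated genotypes, 0 between differentiating genotypes, 3 with induction in WT, 6 in KO MSCs and 2 for the interaction.

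Without 1 library in turn, the members called ranged from 6 to 19 between undifferentiated genotypes, 7 to 49 between differentiating genotypes, 21 to 45 with induction in WT, 48 to 64 in KO MSCs and 8 to 35 for the interaction. The medians ranged from -0.07 to -0.01, -0.24 to -0.083, -0.17 to -0.09, -0.31 to -0.18 and -0.17 to -0.046. A lone library was then assumed to vary like the other groups. Shares of all genes are not given for the alternative fits or for calls kept without any 1 library. Those counts therefore do not set the members apart from other genes. With a replicate block, 10, 25, 33, 59 and 13 members were called, and of 220 calls or non-calls of named genes 19 were lost and 1 was gained. The cause of these changes was not tested. Over all alternatives, named genes kept their direction and side of the threshold in 3650 cases, lost a call in 343, gained one in 86 and reversed in 2. Depth limits *Cox6a2*, *Cox8b*, *Cox7b2* and *Cox8c*, and 2 libraries a group limit every comparison.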
